A study of Mus musculus with 18 samples.

Results

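The 2',5'-oligoadenylate synthetase (Oas) family was followed across C2C12 mouse muscle cells that overexpress either form of the long noncoding RNA MUNC. It is represented here by Oas1a, Oas1b, Oas1c, Oas1g, Oas2, Oas3, Oasl1 and Oasl2, which are 8 of the 35275 genes in the deposited expression table. They were chosen by name after Oas2 and Oas3 had come up among the largest differences in earlier results of these data. Those differences were in the control cells between growth and differentiation medium, between MUNC genomic and control cells in differentiation medium, and in the interaction of MUNC genomic with differentiation. The table holds 12 genes with an Oas symbol, and the 4 outside the set are Oas1d, Oas1e, Oas1f and Oas1h.

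Oligoadenylate synthetases bind double-stranded RNA and join ATP into short oligoadenylates with unusual linkages, known as 2-5A. These molecules act as second messengers of the antiviral response, which slows protein synthesis and viral growth. The genes are classical interferon-stimulated genes: type I interferon acts through the receptor chains Ifnar1 and Ifnar2 and the kinases Jak1 and Tyk2 to activate transcription factors, Stat2 and Irf9 among them, that act at the interferon-stimulated response element (ISRE) in their promoters. Most tissues, muscle included, keep them low at rest. In the mouse the Oas1 gene is present as a group of tandem copies, and the Oas-like proteins Oasl1 and Oasl2 carry ubiquitin-like domains.

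C2C12 is a mouse myoblast line whose cells stop dividing and form multinucleate myotubes in low serum, and all groups came from a stock labelled PAX7 negative. The control cells were labelled wild-type, MUNC spliced cells overexpress the spliced transcript and MUNC genomic cells the unspliced sequence. MUNC is transcribed upstream of the muscle regulator Myod1. Each of these was sampled in growth medium with 20% fetal bovine serum at about 80% confluency (GM) and after 3 days in medium with 2% horse serum (DM3), with 3 biological replicates in each of the 6 groups, 18 libraries in all. The vector and promoter behind the overexpression, and whether each line is 1 clone or a pool, are not given in the sources used here, and the level of MUNC itself was not analysed here, so its overexpression was not checked. Nothing in the labels says whether replicates were separate cultures of 1 line, so p-values measure the spread between these samples.

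Libraries held 38416702 to 68788327 reads, so that 3 reads, the upper limit that a count of 0 allows, corresponded to 0.0429 to 0.0757 FPM (reads scaled for library size). Such limits cover counting error only. No 2 libraries were identical. The cells carried myoblast markers such as Des, Cdh15 and Myf5, with the summed level of the 8 markers at 3642 FPM or more in every library. Myod1, the regulator that commits cells to muscle, was nearly absent from the control cells, at 0 to 5 reads in GM and 0 to 12 reads in DM3, and Msc was at 0 in all of them. The 6 myotube markers summed to 12.03 to 31.5 FPM in control GM and 8.10 to 13.2 FPM in control DM3, against 150 to 820 FPM in MUNC spliced DM3 and 50.4 to 93.3 FPM in MUNC genomic DM3, so the control cells in DM3 did not carry the markers of myotubes. Pax7 was at 0.147 FPM or below in every library. Of the immune cell types that express Oas genes, the defining lymphocyte markers Cd3e, Ncr1 and Cd8a were at 0 in all libraries and the 4 dendritic cell markers summed to at most 0.303 FPM. The 7 macrophage markers in the table summed to 22.2 to 24.2 FPM in control DM3, 10.5 to 14.3 in MUNC spliced DM3 and 15.5 to 17.3 in MUNC genomic DM3. In bulk RNA, fewer cells expressing a gene and less RNA per cell cannot be told apart.

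All 8 genes lie on chromosome 5 of the mouse genome (GRCm38, GENCODE M21; the submitters' processing notes name mm10). Oasl2 (chr5:114896936-114912234) and Oasl1 (chr5:114923240-114937915) are neighbours on the plus strand, 11005 bases apart. Oas2 (chr5:120730333-120749853) and Oas3 (chr5:120753098-120777661) stand next to each other on the minus strand with 3244 bases between them. The Oas1 copies follow, with Oas1c (chr5:120800194-120812514, minus strand) and Oas1b (chr5:120812635-120824163, plus strand) placed head to head 120 bases apart, then Oas1g (chr5:120876142-120887613) and Oas1a (chr5:120896256-120907521), both on the minus strand. Each named interval is the whole gene, exons, introns and untranslated ends included. The annotation lists Oas1b as a polymorphic pseudogene, since many laboratory strains carry a truncated form. It also places an unnamed gene model antisense to Oas1c, another antisense to Oasl1 and an overlapping one on the strand opposite Oas2. Whether reads were counted by strand is not given in the sources used here, so reads of such pairs cannot be told apart.

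Near-identical copies limit what can be said of single Oas1 genes. Of the stretches of 50 bases in the transcripts of Oas1a, 57.6% also occur in another Oas transcript, all of these in Oas1g, and 45.7% of those of Oas1g are shared in the same way. The split of reads between Oas1a and Oas1g is therefore uncertain. The shared part was 9.82% for Oas1c and 1.17% for Oas1b, and 0% for Oas2, Oas3, Oasl1 and Oasl2.

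The sequences before the start sites are shown with matches to the core letters of the ISRE, the element through which interferon acts on this family. RefSeq (GRCm38.p6) gave a promoter for 6 of the 8 members, not for Oas1b and Oas2. The 120 bases upstream of each start are printed 5′ to 3′ on the strand of the gene, and capitals mark matches to the ISRE core GAAANNGAAA on either strand.
Oas1a, chr5:120907526-120907645, minus strand: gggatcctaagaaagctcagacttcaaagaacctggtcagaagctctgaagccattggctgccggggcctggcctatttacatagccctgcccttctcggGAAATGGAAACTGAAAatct
Oas1g, chr5:120887614-120887733, minus strand: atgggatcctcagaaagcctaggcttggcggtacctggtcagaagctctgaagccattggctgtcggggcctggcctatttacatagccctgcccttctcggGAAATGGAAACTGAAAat
Oas1c, chr5:120812515-120812634, minus strand: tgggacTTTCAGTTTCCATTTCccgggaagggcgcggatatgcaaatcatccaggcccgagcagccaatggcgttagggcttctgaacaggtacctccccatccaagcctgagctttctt
Oas3, chr5:120777660-120777779, minus strand: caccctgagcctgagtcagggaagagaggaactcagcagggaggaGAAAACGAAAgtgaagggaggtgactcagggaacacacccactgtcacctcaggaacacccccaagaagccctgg
Oasl1, chr5:114923120-114923239, plus strand: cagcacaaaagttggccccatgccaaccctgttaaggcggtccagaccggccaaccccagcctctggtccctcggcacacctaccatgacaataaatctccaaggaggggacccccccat
Oasl2, chr5:114896814-114896933, plus strand: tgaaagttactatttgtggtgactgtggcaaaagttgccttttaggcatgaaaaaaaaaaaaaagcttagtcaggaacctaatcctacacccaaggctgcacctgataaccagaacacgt

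In the full window from 250 bases before to 50 bases after the start, the ISRE core was found in 4 of the 6 promoters, those of Oas1a, Oas1c, Oas1g and Oas3, and in 3.44% of the 32851 promoters of the same length. Oas1a and Oas1g each held a pair of overlapping matches just before the start, at −20 to −5 and −18 to −3, in upstream sequences that were identical at 88.5% of aligned positions. Oas3 held a single match at −75 to −66. In Oas1c the matches lay on the opposite strand at the far end of the printed stretch, which is the whole interval between Oas1c and Oas1b, and ended 7 bases before the annotated start of Oas1b. The gamma-activated site TTCNNNGAA, linked to the response to interferon gamma, was found once, in Oas1a, against 8.30% of all promoters. The E box CANNTG, the letters read by Myod1 and its relatives, was found in Oasl1 and Oasl2, against 72.3% of all promoters. Both motifs read the same on either strand. A match is a description of the letters, and these windows say nothing of binding. Only exact letters in this window were searched, so a promoter without a match is not shown to lack an ISRE.

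In control cells all 8 genes stood higher in DM3 than in GM, with no overlap between the libraries. Since this is 1 of the differences that led to the choice of the genes, the values are a description and carry no test. The share of all tested genes without overlap was not counted. Nothing is therefore read from counts of members without overlap, here or below. The 8 genes together took 27.7, 107 and 16.1 FPM in the 3 control GM libraries (replicates 1 to 3, in this order throughout) and 1634, 1444 and 1284 FPM in control DM3. Per kilobase of exon, the mean control DM3 level ran from Oasl2 at 95.1 ± 7.28 (SD, n = 3) and Oas2 at 84.9 ± 17.6, through Oas1a at 48.6 ± 16.9, Oas3 at 37.4 ± 1.45, Oas1b at 23.1 ± 0.913, Oas1g at 13.7 ± 5.59 and Oasl1 at 11.5 ± 2.905, to Oas1c at 2.62 ± 0.404 FPM per kilobase. The ranges of Oasl2 and Oas2 overlapped, as did those of Oas1a with Oas3 and of Oas1g with Oasl1, so their order within each pair lies within the spread of the libraries.

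**Figure D1:**
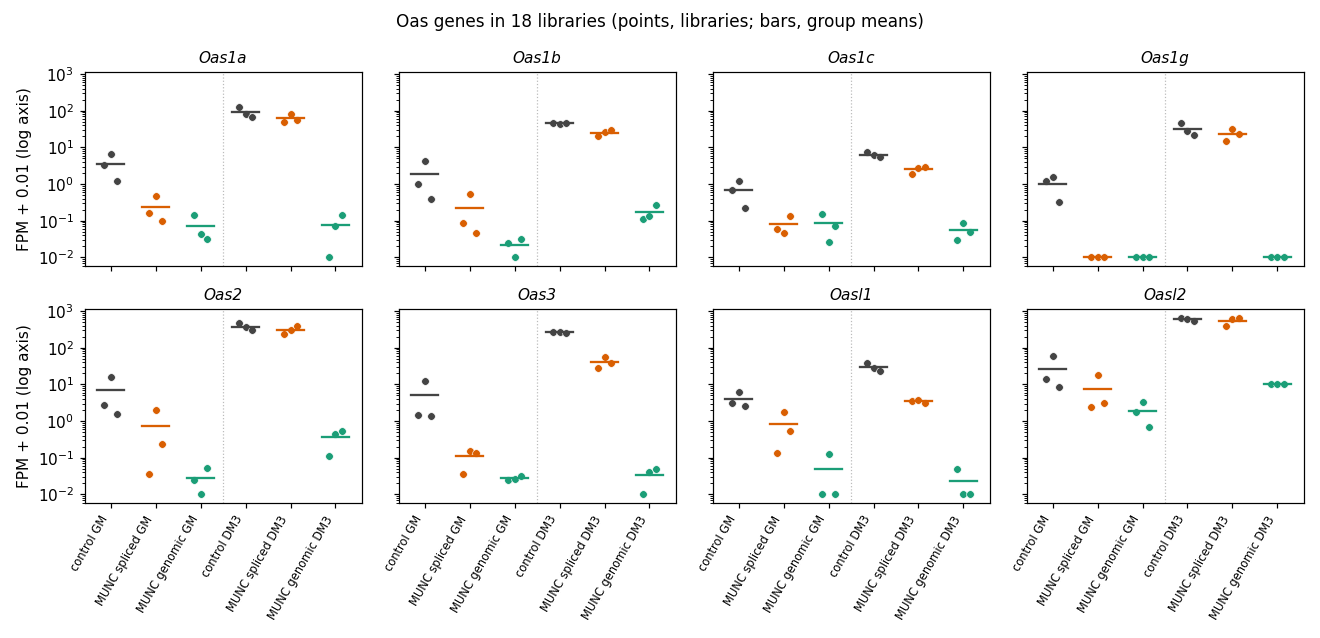
Level of each Oas gene in the 18 libraries (points) with the group means (bars), in FPM + 0.01 on a log axis, by cell line and medium (GM, growth medium; DM3, differentiation medium for 3 days). Control DM3 has the highest mean for every gene and MUNC spliced DM3 the next highest for all but Oasl1, which control GM exceeds. MUNC genomic libraries are low in both media, with Oasl2 the only gene of the 8 above 1 FPM in all of them in DM3.

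Among the enzymes, Oas2, which is built from repeated synthetase units, stood at 2.82, 16.1 and 1.57 FPM in control GM and at 463, 361 and 309 FPM in control DM3, a ratio of means of 55.3, or 172 without control GM replicate 2. Oas3, the largest synthetase, which binds long double-stranded RNA, went from 1.45, 12.7 and 1.34 FPM to 262, 276 and 256 FPM, 51.2 times the GM mean, or 190 times without that library. Oas1a, an active small synthetase, was at 3.26, 6.39 and 1.21 FPM in GM and at 128, 79.3 and 67.7 FPM in DM3. For each of these enzymes the control libraries of the media did not overlap. Oas1g, the close copy of Oas1a, held 1.18, 1.56 and 0.323 FPM in GM and 46.7, 28.0 and 21.5 FPM in DM3. Oas1b, known for its link to flavivirus resistance in mice, held 1.01, 4.34 and 0.384 FPM in GM and 47.3, 43.9 and 46.7 FPM in DM3. Oas1c was the lowest, with 0.666, 1.20 and 0.215 FPM in GM and 7.39, 6.04 and 5.51 FPM in DM3.

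Of the Oas-like genes, Oasl2, whose mouse product keeps synthetase activity, was at 14.3, 58.6 and 8.48 FPM in control GM and 642, 622 and 553 FPM in control DM3. Oasl1, which has no synthetase activity and is known in the mouse to hold back translation of Irf7, was at 3.07, 6.12 and 2.58 FPM and at 38.3, 27.7 and 23.7 FPM. Its ratio of DM3 to GM means, 7.62, was the smallest of the 8, and remained so without any 1 of the control GM libraries. The largest was that of Oas2, or that of Oas3 without control GM replicate 2. Control GM replicate 2 was the highest control GM library for 8 of 8 members, while in DM3 replicate 1 was the highest for 7 of 8. The 8 members were among the 29.6% of the 13869 tested genes that limma called higher in control DM3 (28.6% were called lower). Nothing is read from that count, because the contrast was used in choosing the genes.

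The MUNC spliced cells gave another series of libraries for the same change of medium, sharing none with the comparison just described. They are not wholly separate from it, since the fit takes its spread from all 18 libraries and replicate numbers pair them with the control libraries. All 8 Oas genes rose between MUNC spliced GM and MUNC spliced DM3 (limma on log2(FPM + 1), Benjamini-Hochberg adjusted p under 0.05), where 17.2% of all tested genes were called higher and 18.4% lower. The median log2 difference of the members was 4.87, beside -0.01 over all tested genes. On this scale the largest difference was that of Oas2, from 0.0252, 1.98 and 0.234 FPM in MUNC spliced GM to 238, 307 and 388 FPM in DM3, a log2 difference of 7.62 ± 0.507 (SE; limma adjusted p = 5.29e-08). Oasl2 went from 2.45, 17.5 and 3.08 FPM to 392, 604 and 646 FPM, by 6.39 ± 0.599 (limma adjusted p = 1.48e-06). In these libraries too the groups did not overlap for any member, from which nothing is read, since the share over all tested genes was not counted.

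Oas1a rose from 0.151, 0.458 and 0.0902 FPM in MUNC spliced GM to 50.2, 82.3 and 57.5 FPM in DM3, by 5.69 ± 0.324 on the log2 scale (limma adjusted p = 8.49e-09). Oas3 rose from 0.0252, 0.147 and 0.126 FPM to 28.3, 55.6 and 39.6 FPM, by 5.21 ± 0.449 (limma adjusted p = 6.76e-07). Oas1g had 0 reads in all 3 MUNC spliced GM libraries and 14.9, 31.0 and 23.0 FPM in DM3. Set against the upper limit of 3 reads per library, that is at least 373-fold higher in DM3. Oas1b stood at 0.0757, 0.513 and 0.0361 FPM in GM and 19.8, 26.3 and 29.4 FPM in DM3, with a log2 difference of 4.44 ± 0.325. Oas1c stood at 0.0505, 0.0367 and 0.126 FPM in GM and 1.90, 2.67 and 2.95 FPM in DM3, with a log2 difference of 1.70 ± 0.171. Oasl1 moved least, from 0.126, 1.74 and 0.541 FPM to 3.59, 3.64 and 3.13 FPM, by 1.40 ± 0.275 (limma adjusted p = 0.00105). Values on the log2(FPM + 1) scale understate the change of genes that start near 0.

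In MUNC genomic cells 7 of the 8 genes were at 0.527 FPM or below in every library of both media. This change of medium is one side of the interaction that served in choosing the genes, so its values are a description. Oasl2 stood at 1.79, 3.26 and 0.672 FPM in MUNC genomic GM and at 9.95, 10.3 and 10.3 FPM in DM3, a log2 difference of 2.04 ± 0.599. The members' median difference was 0.01 and that of all tested genes 0.02. Oasl2 alone of the members was among the 26.3% of tested genes that limma called higher (25.1% were called lower), from which nothing is read. Oas2 had 1, 0 and 2 reads in MUNC genomic GM and 5, 28 and 27 reads in DM3, and Oas1b had 1, 0 and 1 reads and then 5, 8 and 13. Their DM3 libraries were all above their GM libraries. Limma on log2(FPM + 1) did not call them, and DESeq2 on the recovered reads, which works on the relative scale, called 3 members. Oas1a, Oas1c, Oas3 and Oasl1 overlapped between the media, with at most 10 reads in any MUNC genomic library. Oas1g had 0 reads in all 6 MUNC genomic libraries.

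Set against control DM3, the MUNC genomic DM3 libraries held between 1.68% (Oasl2) and 0.00871% (Oas3) of the control mean among the members with reads in MUNC genomic DM3. This contrast also served in choosing the genes and is given without a test. Oas3 had 0, 2 and 2 reads in MUNC genomic DM3, where the control DM3 libraries had 13634, 13982 and 13892 reads. Oas1a had 0, 4 and 7 reads against 6650, 4019 and 3678. Oasl1 had 2, 0 and 0 reads against 1997, 1402 and 1287, a ratio of 2267 with a 95% counting interval of 628 to 18720. Oas1g, with no reads, was at least 590.1-fold lower than in control DM3. The 8 genes together took 10.2, 10.98 and 11.3 FPM in MUNC genomic DM3, nearly all of it Oasl2. The members belonged to the 20.9% of tested genes called lower (19.3% were called higher), from which nothing is read.

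The interaction of MUNC genomic with differentiation, which asks whether the change of medium differed between MUNC genomic and control cells, was likewise used in choosing the genes. Its log2 values ran from -2.18 for Oas1c to -5.95 for Oas3, and all 8 members were among the 5.25% of genes called lower in it (3.56% were called higher). Oasl2 was called in 7 of 22 alternatives, and each of the other members in 20 to 22. On the relative scale of the recovered reads the same interaction was called for 1 member by edgeR and 3 by DESeq2. For Oas2, which had 3 reads in all of MUNC genomic GM, it was -5.69 on log2(FPM + 1) and -1.57 in edgeR, which did not call it.

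**Figure D2:**
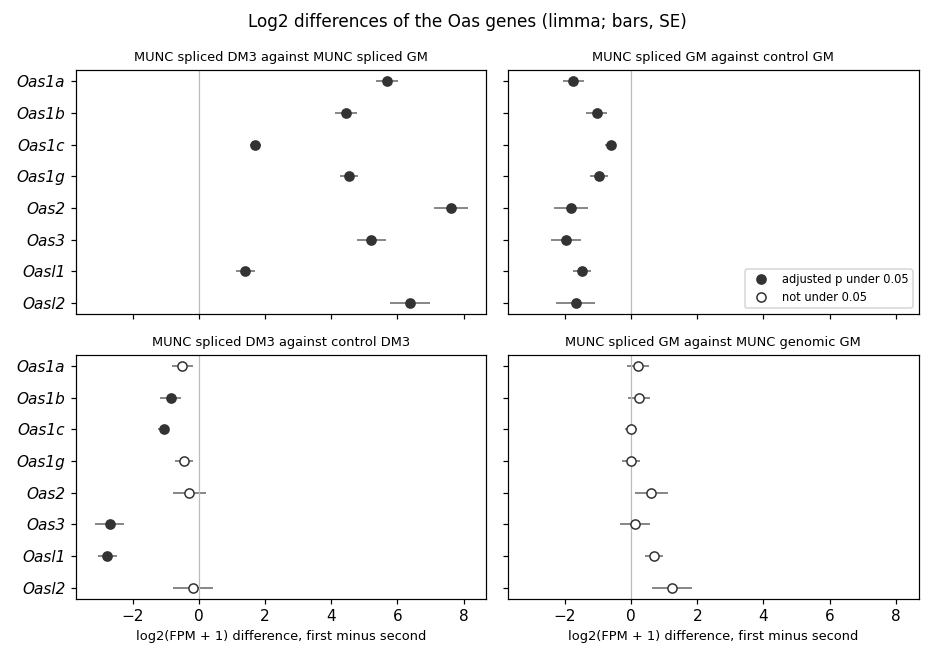
Log2(FPM + 1) difference of each Oas gene (points) with its SE (bars) in 4 comparisons, filled where the limma adjusted p is under 0.05. All 8 genes are filled for the change of medium within MUNC spliced cells and for MUNC spliced against control GM, 4 of 8 for MUNC spliced against control DM3 and 0 for the MUNC lines in GM.

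Already in growth medium the family was lower in both MUNC lines than in control cells. All 8 members were called lower in MUNC spliced GM against control GM, where 17.3% of tested genes were called lower and 18.2% higher. All 8 were also called lower in MUNC genomic GM against control GM, where 14.5% of genes were called lower and 12.2% higher. The second is one side of the interaction used in choosing the genes, so its count and values are a description. These comparisons share the 3 control GM libraries with each other and with the change of medium in control cells, so they are given side by side and not as support for each other. The members' median log2 difference was -1.58 in MUNC spliced and -2.02 in MUNC genomic cells, beside -0.02 and -0.03 over all tested genes. The filter on low values was met mainly through the DM3 libraries, which these comparisons do not use. In GM alone, Oas1b, Oas1c and Oas1g reached 0.5 FPM in 2 of 3 control libraries.

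Oasl2, the most abundant member in GM, differed from control by -1.68 ± 0.599 in MUNC spliced GM (limma adjusted p = 0.0383) and by -2.92 ± 0.599 in MUNC genomic GM, both on the log2 scale. Oas2 differed by -1.83 ± 0.507 (limma adjusted p = 0.0107) and by -2.44 ± 0.507. Oas3 differed by -1.96 ± 0.449 (limma adjusted p = 0.00302) and by -2.07 ± 0.449. In MUNC genomic GM no library of any of the 8 genes reached the lowest control GM library. In MUNC spliced GM, Oas1b, Oas2 and Oasl2 overlapped with control, each through its second replicate.

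Control GM replicate 2, the highest control GM library for all 8 genes, carried part of these calls. Without it the number of members called fell from 8 to 4 in MUNC spliced GM and from 8 to 6 in MUNC genomic GM, and without MUNC spliced GM replicate 1 it was 5 in MUNC spliced GM. Oas1a, Oas2, Oas3 and Oasl1 were the 4 still called in MUNC spliced GM, and Oasl2 was not (log2 difference -0.91, limma adjusted p = 0.205, with 0.00315 to 0.205 over all alternatives). Fitted on the 6 libraries compared alone, 3 members were called in MUNC spliced GM (Oas1a, Oas3 and Oasl1) and 5 in MUNC genomic GM. In those fits Oas1c and Oas1g, and in MUNC genomic GM also Oas1b, no longer passed the filter.

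The MUNC genomic GM libraries also entered the interaction used in choosing the genes. Between the MUNC lines in GM, 0 of the 8 members were called by limma. Of all tested genes, 19.9% were called higher in MUNC spliced GM and 16.0% lower. In limma 1 member was at an unadjusted p under 0.05, a level at which the share of all tested genes was not counted. Oasl1 was at 0.126, 1.74 and 0.541 FPM in MUNC spliced GM and at 0, 0.118 and 0 FPM in MUNC genomic GM, with no overlap and a log2 difference of 0.70 ± 0.275 (limma adjusted p = 0.0590). Oasl2 differed by 1.24 ± 0.599 (limma adjusted p = 0.119), and its groups overlapped. Replicate numbers paired the libraries of these groups, and with the replicate number as a block 2 members were called, Oasl1 (limma adjusted p = 0.0328) and Oasl2 (limma adjusted p = 0.0443). Over all alternatives the adjusted p ran from 0.00025 to 0.320 for Oasl1 and from 0.0368 to 0.551 for Oasl2. On the recovered reads edgeR called 2 members and DESeq2 called 4.

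In DM3 the MUNC spliced cells held some Oas genes near the control level and others well below it. Of the 8 members, 4 were called lower than in control DM3 and 0 higher, where 21.0% of tested genes were called lower and 22.3% higher. The members' median log2 difference was -0.68, beside 0.01 for all tested genes. These libraries share control DM3 with the change of medium in control cells and with the MUNC genomic contrast, both used in choosing the genes. That choice favoured high control DM3 values, so the p-values of members in this comparison carry that limit.

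Oasl1 and Oas3 were the genes furthest below control. The 3 MUNC spliced DM3 libraries held 11.999, 12.2 and 10.5% of the control DM3 mean of Oasl1 (11.5% ± 0.945, SD, n = 3), and the control libraries themselves ran from 79.3% to 128% of it. Its log2 difference was -2.77 ± 0.275 (limma adjusted p = 8.05e-07). Oas3 was at 10.7, 21.0 and 14.96% of its control mean (15.6% ± 5.20), with control libraries at 96.7% to 104%, and its log2 difference was -2.71 ± 0.449 (limma adjusted p = 0.000152). Oas1c stood at 39.7% ± 8.60 and differed by -1.07 ± 0.171 (limma adjusted p = 0.00011). None of the 3 overlapped with control, and each was called in all 16 alternatives.

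Oas1b was at 54.7% ± 10.6 of control, again with no overlap, and its call depended on the setting. The log2 difference was -0.86 ± 0.325 (limma adjusted p = 0.0416), the adjusted p ran from 0.0036 to 0.433 over 16 alternatives, and 5 of these called it. Neither edgeR (adjusted p = 0.233) nor DESeq2 (adjusted p = 0.433) did.

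The other 4 were not called in any of the 16 alternatives. Oas1a was at 69.2% ± 18.4 of control (log2 difference -0.50 ± 0.324, limma adjusted p = 0.224) and Oas1g at 71.6% ± 24.98 (-0.45 ± 0.271, limma adjusted p = 0.193). Oas2 stood at 63.0, 81.3 and 103% (82.3% ± 19.8; log2 difference -0.29 ± 0.507, limma adjusted p = 0.674). Oasl2 stood at 64.7, 99.7 and 107% (90.3% ± 22.5; log2 difference -0.18 ± 0.599, limma adjusted p = 0.836). MUNC spliced DM3 replicate 1 was the lowest of its group for 7 of the 8 genes, Oasl1 being the exception, and it was also the library with the highest myotube markers, at 820 FPM summed. Without it the difference of Oasl2 was 0.05. The part of that library's muscle markers in the Oas levels was not tested.

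The authors' deposited table of their own comparison gives a like order, with log2 fold changes of -3.11 for Oasl1, -2.68 for Oas3, -1.33 for Oas1c and -0.87 for Oas1b, and of -0.53, -0.48, -0.28 and -0.15 for Oas1a, Oas1g, Oas2 and Oasl2. It was made from the same libraries.

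**Figure D3:**
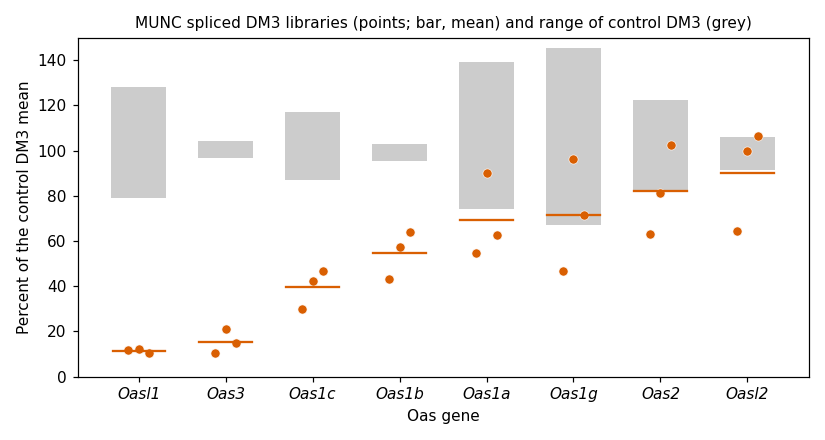
Level of each Oas gene in the 3 MUNC spliced DM3 libraries (points; bar, mean) as a percent of the control DM3 mean, with the range of the 3 control DM3 libraries in grey. Oasl1 and Oas3 lie between 10.5% and 21.0%, Oas1c and Oas1b below the control range, and Oas1a, Oas1g, Oas2 and Oasl2 reach into or above it.

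The same values can be put as ratios within single libraries, which do not depend on scaling. The neighbouring pairs were chosen after these values were seen, so the ratios restate them and carry no test. In control DM3 the reads of Oas3 were 56.6, 76.4 and 82.7% of those of its neighbour Oas2, and in MUNC spliced DM3 they were 11.9, 18.1 and 10.2%. The reads of Oasl1 were 5.98, 4.44 and 4.28% of those of its neighbour Oasl2 in control DM3 and 0.916, 0.603 and 0.484% in MUNC spliced DM3. Neither ratio overlapped between the groups. The members of these 2 pairs lie 3244 and 11005 bases from each other on the same strands. In the printed promoters Oas3 has a match to the letters of the ISRE core and Oasl1 has none.

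Between the MUNC lines in DM3, all 8 members stood higher in MUNC spliced cells. The MUNC genomic DM3 libraries, in which the genes had been picked as low, are used again here, so the values are a description. The log2 differences ran from 1.73 ± 0.171 for Oas1c to 7.84 ± 0.507 for Oas2, and no member's groups overlapped. The 8 were among the 23.4% of tested genes called higher (20.8% were called lower), from which nothing is read. Oasl2, which kept 503, 682 and 527 reads in MUNC genomic DM3, was 53.8 times higher in MUNC spliced DM3.

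Whether the rise from GM to DM3 differed between MUNC spliced and control cells was asked with their interaction. Its control side, DM3 against GM, served in choosing the genes, so its p-values are not free of that choice. Limma called 1 of the 8 members, lower, and the direction of the calls changed with the scale. Of all tested genes, 6.94% were called lower and 7.43% higher at the same adjusted threshold. In limma 3 members were at an unadjusted p under 0.05, a level at which the share of all tested genes was not counted. Oasl1 was the gene called (log2 interaction -1.29, limma adjusted p = 0.0375), with the smaller rise in MUNC spliced cells. It was called in 8 of 22 alternatives, whose adjusted p ran from 0.0112 to 0.710, and in neither edgeR (adjusted p = 0.541) nor DESeq2 (adjusted p = 0.710). Oas1a had an interaction in the other direction, a larger rise in MUNC spliced cells, at 1.25 in limma without a call (limma adjusted p = 0.0770). It was called higher in 8 of the 22 alternatives, with 3.43 in edgeR (adjusted p = 0.0138), 3.42 in DESeq2 (adjusted p = 0.0167) and 1.25 with the replicate block (limma adjusted p = 0.0386). Oas1g, with 0 reads in MUNC spliced GM, was called higher by edgeR (adjusted p = 0.0132), DESeq2 (adjusted p = 2.37e-05) and limma with a pseudocount of 0.1 (adjusted p = 0.00674). No member was called without MUNC spliced DM3 replicate 1, 2 or 3, MUNC spliced GM replicate 2, control DM3 replicate 2 or control GM replicate 1, each left out alone, and 3 were called lower without control GM replicate 2 (Oas1c, Oas3 and Oasl1). Without control DM3 replicate 1 or control GM replicate 3 the gene called was Oas1a. For Oas3 the sign depended on the scale, at -0.74 on log2(FPM + 1) and 2.94 in edgeR on recovered reads, with its MUNC spliced GM libraries at 0.147 FPM or below.

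Of other genes tied to 2-5A, Abce1, known for its role in ribosome recycling, and Pde12, a phosphodiesterase that degrades 2-5A, moved the other way with the medium. Within MUNC spliced cells Abce1 fell by 0.36 (limma adjusted p = 0.0366) and Pde12 by 0.36 (limma adjusted p = 0.0370) on the log2 scale. Within MUNC genomic cells they fell by 1.09 (limma adjusted p = 5.89e-06) and 0.44 (limma adjusted p = 0.00976). Abce1 was abundant throughout, at 226, 237 and 200.1 FPM in control DM3. In MUNC spliced DM3 against control DM3 both were called higher, Abce1 by a log2 difference of 0.43 (limma adjusted p = 0.0125) and Pde12 by 0.33 (limma adjusted p = 0.0474).

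Among the Oas copies outside the set, Oas1h was at 1.56, 2.13 and 2.17 FPM in control DM3. It was at 0.171, 0.767 and 0.506 FPM in the MUNC spliced libraries and had 0 reads in the MUNC genomic libraries of that medium. It was lower in MUNC spliced DM3 than in control DM3 by a log2 difference of -1.01 ± 0.121 (limma adjusted p = 5.92e-06). Oas1d and Oas1e were at 0.152 FPM or below in every library, and Oas1f had at most 1 read in any.

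**Figure D4:**
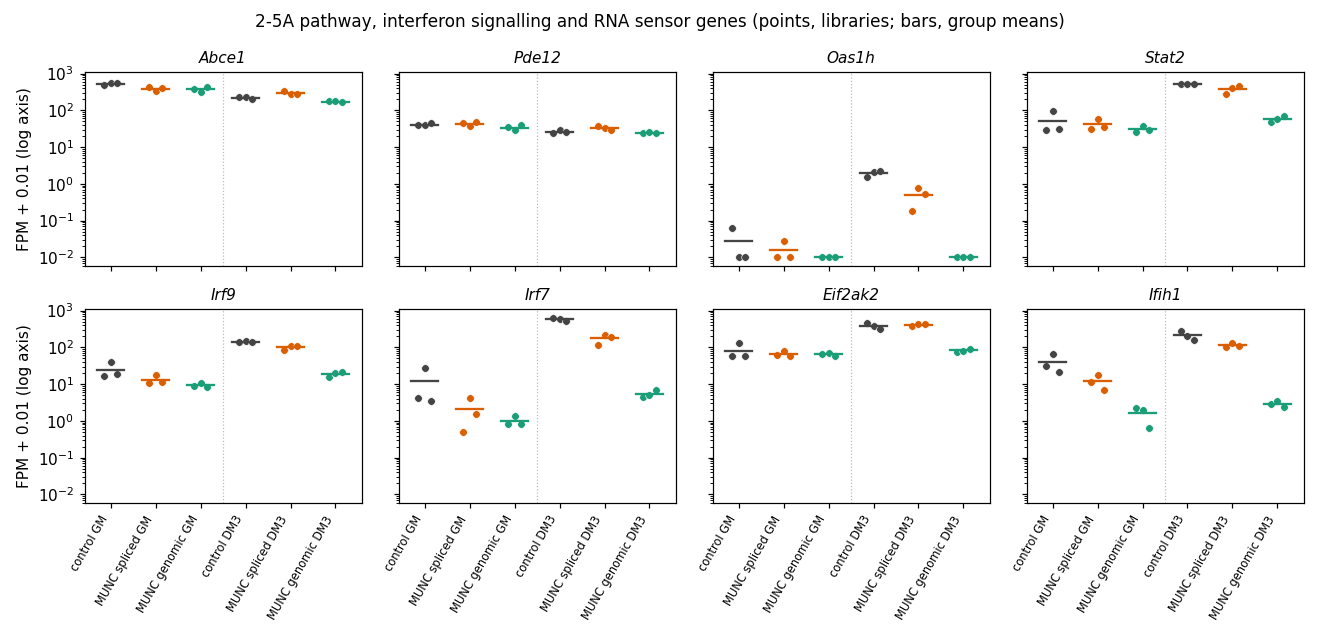
Level of Abce1, Pde12, Oas1h, the interferon signalling genes Stat2, Irf9 and Irf7 and the RNA sensors Eif2ak2 and Ifih1 in the 18 libraries (points; bars, group means), in FPM + 0.01 on a log axis. Eif2ak2 reaches the control DM3 level in MUNC spliced DM3, Irf7 stays below it, and Abce1 has its highest levels in control GM.

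The interferons that induce the family were barely present as messages. Of 21 interferon genes in the table, 10 had 0 reads in every library, none passed the filter, and the highest count of any of them in a library was 34. Ifnb1 had 9, 5 and 10 reads in control DM3, 7, 9 and 10 in MUNC spliced DM3 and 0 in all MUNC genomic DM3 libraries. In GM it had at most 5 reads in any library.

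The 13 genes listed for interferon signalling to the ISRE hold Usp18, Socs1 and Irf2 beside the receptor chains, kinases and other factors. Of the 13, 9 were called higher and 0 lower in MUNC spliced DM3 against MUNC spliced GM. Their median log2 difference was 0.78 (-0.01 over all tested genes, of which 17.2% were called higher and 18.4% lower). Within MUNC genomic cells 6 were called higher and 0 lower (26.3% and 25.1% of all tested genes). In MUNC spliced DM3 against control DM3, 4 were called lower and 0 higher (21.0% and 22.3%). Irf7, an interferon regulatory factor, was at 626, 583 and 510.3 FPM in the control libraries and at 115, 222 and 193 FPM in the MUNC spliced libraries of DM3, and was called lower (log2 difference -1.74 ± 0.540, limma adjusted p = 0.0158). Stat2 and Irf9 were at 73.4% ± 18.0 and 70.1% ± 10.01 of control without being called (limma adjusted p = 0.284 and 0.104).

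In MUNC genomic cells Stat2, Irf9 and Irf7 kept a measurable level in both media but stood far below control in DM3. Their MUNC genomic DM3 means were 11.3%, 13.1% and 0.945% of the control DM3 means, in this order, beside 1.68% for Oasl2. That contrast served in choosing the Oas genes, so these percentages are a description. Stat2 was at 25.5, 38.5 and 29.4 FPM in MUNC genomic GM and at 48.1, 59.2 and 68.98 FPM in MUNC genomic DM3, with no overlap (log2 difference 0.90 ± 0.346, limma adjusted p = 0.0390). Irf7 was at 4.55, 4.91 and 6.79 FPM in MUNC genomic DM3, and rose there from GM by 1.69 ± 0.540 on the log2 scale (limma adjusted p = 0.0151). Irf9 rose by 0.92 ± 0.249 (limma adjusted p = 0.0059). Whether the Oas genes and these factors differ in their response to MUNC genomic was not tested.

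Of the 12 genes for other sensors and effectors of double-stranded RNA, 8 were called higher and 3 lower in MUNC spliced DM3 against MUNC spliced GM (17.2% and 18.4% of all tested genes). In MUNC spliced DM3 against control DM3, 1 was called higher and 4 lower (22.3% and 21.0%). Eif2ak2 (PKR), the kinase that stops translation on double-stranded RNA, was at 452, 376 and 308 FPM in the control libraries and at 370.4, 443 and 437 FPM in the MUNC spliced libraries of DM3 (limma adjusted p = 0.623). The RNA helicase sensor Ddx58 (RIG-I) was at 104% ± 13.8 of control and was not called either (limma adjusted p = 0.912). Adar, which edits double-stranded RNA, was lower (log2 difference -0.68 ± 0.224, limma adjusted p = 0.0224). Ifih1 (MDA5) was at 52.5% ± 6.41 of control with no overlap but was not called (limma adjusted p = 0.0644).

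Ifih1 was low in MUNC genomic cells in both media, with 3.49 FPM as its highest value there. In growth medium it was at 31.2, 66.3 and 21.9 FPM in control, 11.2, 18.1 and 6.85 FPM in MUNC spliced and 2.28, 1.96 and 0.630 FPM in MUNC genomic cells, 3 groups without overlap. It was lower than control in MUNC spliced GM (log2 difference -1.59 ± 0.372, limma adjusted p = 0.00357) and in MUNC genomic GM (-3.87 ± 0.372, limma adjusted p = 6.7e-07). Eif2ak2 in GM overlapped between all 3 cell lines.

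The lists were counted in further comparisons as well. In MUNC spliced GM against control GM, 1 signalling gene was called higher and 4 lower, and 1 RNA sensing gene higher and 4 lower (18.2% and 17.3% of all tested genes). In MUNC genomic GM against control GM the counts were 1 higher and 3 lower for signalling and 0 and 4 for RNA sensing (12.2% and 14.5%). Between MUNC spliced and MUNC genomic DM3 they were 6 higher and 2 lower, and 8 and 1 (23.4% and 20.8%). In MUNC genomic DM3 against control DM3 they were 1 higher and 7 lower for signalling, and 1 and 9 for RNA sensing (19.3% and 20.9%). In the MUNC genomic interaction they were 0 and 5, and 0 and 8 (3.56% and 5.25%). So genes of both lists were called lower beside the Oas genes in these contrasts, which served in choosing the Oas genes. Abce1 was called lower than control in both MUNC lines in GM (log2 differences -0.45 and -0.51).

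Over the 18 libraries, 7 of the 8 members followed the mean of the others closely, with Pearson r on log2(FPM + 1) of 0.965 to 0.996, and Oasl1 least, at 0.880. These values mostly reflect differences between the 6 groups. Of 13861 other tested genes, the 5 most like the mean of the members were Ifi44 (r = 0.996), Usp18 (0.994), Ifi35 (0.991), Trim34a (0.991) and Gbp3 (0.991). With a pseudocount of 0.1 in place of 1, 2 of the 5, Ifi44 and Gbp3, were again among the first 5. Ifi44 averaged 18.6 FPM in control GM, 999 in control DM3, 430.3 in MUNC spliced DM3 and 1.45 FPM in MUNC genomic DM3.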

How the data were processed

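Per the labels' protocols, the 18 libraries were made from poly(A) RNA of C2C12 cells and read on an Illumina HiSeq. The submitters' processing notes name STAR, HTSeq, DESeq2 and mm10, without versions or roles. The authors deposited a table of scaled signal (FPM), which a label calls FPKM, and 5 tables of their own comparisons, per the file headers with log2 fold changes and their standard errors. Dividing the deposited signal by the smallest step of its library returned whole reads (100% of values within 0.1 read, largest deviation 0.0354), so the values are read counts over a library factor, and reads were recovered from them. Because the unit was signal, limma was the main test and count models were alternatives.

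Groups came from the sample titles, with which the tissue labels go in all 18 samples, while the source names of 9 samples give myoblasts for DM3 or myotubes for GM. Members and lists were chosen with earlier results of these data known. Differences were fitted with limma 3.58.1 (R 4.3.3, mean-variance trend) on log2(FPM + 1), over the 13869 genes that reached 0.5 FPM in 3 or more libraries, in 1 fit with a mean for each of 6 groups and 12 residual degrees of freedom, with Benjamini-Hochberg adjustment over all tested genes and a threshold of 0.05. All 8 members passed the filter, Oas1a, Oas1b, Oas1c, Oas1g, Oas3 and Oasl1 without any MUNC genomic library. A member that passed through its high groups therefore had to differ from the low ones. Alternatives were other pseudocounts and filters, rescaling to equal sums, quantile normalization, the compared groups alone, a replicate block, edgeR 4.0.16 (quasi-likelihood) and DESeq2 1.42.0 on recovered reads, and leaving out each library, for the ratios of control means added after the data were seen. For control DM3 against GM, 8034 genes were called by edgeR and 8078 by limma. The limma script was tested on simulated data. Named were the 8 members, fixed genes of each list and the 5 genes with the highest correlation to the members' mean. For members, no p is printed of a contrast used in choosing them, of either side of the MUNC genomic interaction, or of a contrast with the MUNC genomic DM3 libraries. Some genes of the lists are not reported here.

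The labels give replicate numbers without saying what they share. In the tested genes, deviations from the group means of same-numbered libraries correlated at r above 0.1 in 36 of 45 pairs (median 0.291, and -0.12 for other numbers). All pairs were above 0.1 for both MUNC lines against control in each medium, control DM3 against GM, and the MUNC lines against each other in GM, so the numbers were taken to pair these libraries. The values given come from the fit without a block, and the block is an alternative.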

Additional observations from a re-analysis of the deposited data

Results flagged for a closer look

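In 9 cases the change of an Oas gene from GM to DM3 differed between an overexpressing line and the control cells by limma's interaction term on log2(FPM + 1). For MUNC genomic, the interaction was -4.43 for Oas1a, -4.06 for Oas1b, -2.18 for Oas1c, -4.02 for Oas1g, -5.69 for Oas2, -5.95 for Oas3, -2.72 for Oasl1 and -2.84 for Oasl2, a smaller rise in MUNC genomic cells each time. That contrast was used in choosing the genes, so these values are a description. Oasl2 was called in 7 of 22 alternatives, and each of the other members in 20 to 22. On recovered reads edgeR called 1 member and DESeq2 called 3. For MUNC spliced, the interaction was -1.29 for Oasl1 (limma adjusted p = 0.0375, with 0.0112 to 0.710 over the alternatives). Oasl1 rose less from GM to DM3 in MUNC spliced than in control cells. The control side of that interaction was also used in choosing the genes. Neither edgeR nor DESeq2 called that gene, and both called Oas1a and Oas1g in the other direction.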

How the results depend on the processing

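Of 1425 alternative values for 84 results on single members, 1311 kept their direction and side of the threshold, 70 lost the call, 26 gained one and 18 changed sign. The counts of members called kept within 1.5 times of 8 in all alternatives for control DM3 against GM, MUNC spliced DM3 against GM, and MUNC genomic DM3 against either other DM3 group. Leaving out libraries gave 0 to 1 members for MUNC spliced against MUNC genomic GM (main value 0), 4 to 8 for MUNC spliced against control GM (main value 8) and 0 to 3 for the MUNC spliced interaction (main value 1, and 3 without control GM replicate 2). With only the groups compared, MUNC spliced and MUNC genomic GM against control GM gave 3 and 5 members, and the MUNC spliced interaction 0. For MUNC spliced against MUNC genomic GM, DESeq2 called 4, edgeR 2, and pseudocounts of 0.1 and 0.5 each 1. For MUNC genomic DM3 against GM, DESeq2 called 3, with log2 differences of 4.32 for Oas2 and 3.80 for Oas1b in that tool. The MUNC genomic interaction gave 3 members in DESeq2, 1 in edgeR and 7 to 8 with libraries left out. The MUNC spliced interaction gave 2 members, Oas1a and Oas1g, both higher and so opposite to Oasl1, in DESeq2, edgeR and with a pseudocount of 0.1. It gave 2 after quantile normalization, Oas1a higher and Oasl1 lower, and 0 with no filter. The ratios of control DM3 to GM means ran from 10.6 (Oasl1) to 190 (Oas3) without control GM replicate 2, an alternative chosen after seeing the data, and from 7.62 to 55.3 with it. The causes were not tested.

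Some signs changed. For MUNC genomic DM3 against GM, Oas1a was -0.053 in edgeR and -0.043 after quantile normalization, and ran from -0.042 to 0.051 with libraries left out, as Oas1c did from -0.078 to 0.0066. Oas1c in MUNC spliced against MUNC genomic GM was 0.0021 with a pseudocount of 0.1, and -0.042 to 0.042 with libraries left out. In the MUNC spliced interaction, Oas1c was 1.93 in DESeq2, 1.92 in edgeR and 0.71 with a pseudocount of 0.1, Oas3 was 2.98, 2.94 and 1.26 in the same order, and Oas1b ran from -0.38 to 0.60 with libraries left out. Oasl2 in MUNC spliced against control DM3 ran from -0.31 to 0.047, the latter without MUNC spliced DM3 replicate 1.

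With the replicate number as a block, 2 members were called for MUNC spliced against MUNC genomic GM. In the MUNC spliced interaction 2 were called (Oas1a higher, Oasl1 lower). Of its libraries, the numbers were taken to pair MUNC spliced with control in each medium and control DM3 with control GM. They were not taken to pair MUNC spliced DM3 with MUNC spliced GM. The block changed no other count of members called.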
